A study of Mus musculus with 43 samples.

Results

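The T cell receptor complex and a set of T cell genes were followed across glia of mice with and without lymphocytes. The 10 genes were chosen by name: Cd3d, Cd3e, Cd3g and Cd247, which encode the signalling chains of the receptor; Trac, Trbc1 and Trbc2, which encode the constant parts of its alpha and beta chains; and Lck, Cd2 and Cd28, which encode a kinase and a pair of surface receptors that act with it. They are 10 of the 55416 genes counted in each of 43 libraries, and all 10 were found among the counted genes.

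The libraries came from the cerebral cortex of 3-month-old C57BL/6J-background mice of both sexes, in 6 littermate pairs of a Rag2-/- mouse and a control. The controls of pairs 1, 2, 3 and 5 were Rag2+/- and those of pairs 4 and 6 were Rag2+/+, and all mice came from a single colony kept in a clean facility. The sexes of a pair matched except in pair 6, with a male control and a female Rag2-/- mouse. The Rag2-/- line, B6.Cg-Rag2tm1.1Cgn/J, carries its deletion in every cell of the body. After perfusion with saline, cells of each cortex were passed over antibody-coated plates (immunopanning) for microglia on CD45, oligodendrocyte precursor cells (OPCs) on PDGFRα, oligodendrocytes on GalC and astrocytes on HepaCAM. Microglia and astrocytes gave 6 control and 6 Rag2-/- libraries each, OPCs 6 and 5, and oligodendrocytes 4 and 4. CD45 is carried by all white blood cells and not by microglia alone, so the microglia plate could also hold other blood-derived cells.

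Rag2 encodes a subunit of the recombinase that joins the V, D and J segments of antigen receptor genes. Without it, developing T cells and B cells do not assemble a receptor and do not mature, while natural killer (NK) cells and myeloid cells form without it. The alpha and beta chains of a T cell receptor bind antigen and have almost no cytoplasmic tail, so the signal passes through the CD3 chains and the zeta chain encoded by Cd247. These chains carry immunoreceptor tyrosine-based activation motifs (ITAMs), in which a pair of tyrosines is phosphorylated by LCK. CD28 delivers the costimulatory signal of T cells and CD2 their adhesion to CD48 on other cells. Lck, Cd2 and Cd247 are also used by NK cells.

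The ITAM coding sequences are shown because they are what distinguishes the signalling chains from the antigen-binding chains among the 10 genes. They were read from the GRCm39 genome with the GENCODE M39 gene models, and each is split by 1 intron, which is left out. A search for a tyrosine codon followed after 2 codons by a leucine or isoleucine codon, and the same again 6 to 8 codons later, found 1 such stretch each in Cd3d, Cd3e and Cd3g and 3 in Cd247. In the sequences, written 5′ to 3′ on the coding strand, capitals mark only the tyrosine, leucine and isoleucine codons that the search matched. Codons for these amino acids elsewhere in a stretch are in lower case.
Cd3d, chr9:44897393-44897609, plus strand: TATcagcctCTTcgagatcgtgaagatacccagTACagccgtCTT
Cd3e, chr9:44910847-44911738, minus strand: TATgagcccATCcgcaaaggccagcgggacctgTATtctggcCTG
Cd3g, chr9:44882033-44882566, minus strand: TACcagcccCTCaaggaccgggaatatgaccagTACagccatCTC
Cd247, chr1:165684020-165685023, plus strand: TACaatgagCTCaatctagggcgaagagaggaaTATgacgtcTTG
Cd247, chr1:165686042-165686829, plus strand: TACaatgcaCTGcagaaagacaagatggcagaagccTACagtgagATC
Cd247, chr1:165687388-165688611, plus strand: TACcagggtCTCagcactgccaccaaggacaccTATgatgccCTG

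Trbc1 and Trbc2 are shown beside each other because most 50-base stretches of their coding sequence occur in both genes. The 2 genes lie 6.849 kb apart on chromosome 6, and a beta chain uses one or the other. Their first coding exon differs at 1 of 375 bases and the third at 15 of 107, while all 4 coding exons together are 95.6% identical over 518 bases. Of 469 windows of 50 bases, the length of 1 read, 283 (60.3%) occur in both genes, and read pairs that aligned to several places were not counted. The counts of both genes are therefore uncertain and may be low. The share of read pairs that fit both genes was not computed, and exonic bases outside the coding sequence were not compared. Capitals mark the bases that differ in the third coding exon.
Trbc1, chr6:41516163-41516269, plus strand: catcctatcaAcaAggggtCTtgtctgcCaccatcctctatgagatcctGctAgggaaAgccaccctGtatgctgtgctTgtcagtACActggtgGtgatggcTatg
Trbc2, chr6:41524706-41524812, plus strand: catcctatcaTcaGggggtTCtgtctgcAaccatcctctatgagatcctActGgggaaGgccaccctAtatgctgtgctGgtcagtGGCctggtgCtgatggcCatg

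The other members have their own uncertainties in counting. Cd3g, Cd3d and Cd3e are neighbours within 40.056 kb of chromosome 9, and Cd3e shares 3.31% of its exonic bases with the gene Gm48719. Cd247 on chromosome 1 shares 54.6% of its exonic bases with Pou2f1 on the other strand and with Gm16565, so its counts are uncertain too. Lck on chromosome 4 shares 0.794% with a microRNA gene. Trac on chromosome 14, Cd2 on chromosome 3 and Cd28 on chromosome 1 share none.

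Libraries held 6499417 to 23118497 counts on genes, so the floor of 3 counts used here for an absent gene was 0.130 to 0.462 counts per 1000000 counts on genes (CPM). The summed CPM of the markers of each panned cell type were higher in every library of that type than in any other library: 6 microglia markers summed to 6908 to 8710 CPM in microglia libraries and to 51.0 to 804 CPM in the rest. The Rag2-/- labels were checked on the targeted locus. Rag2 itself had no count in any of the 21 Rag2-/- libraries, but only 6 counts in the 22 control libraries together, so it checks little. Iftap, whose gene spans Rag2 on chromosome 2, had 14 to 208 counts in every control library and at most 2 in any Rag2-/- library. No library went against its label.

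**Figure D1:**
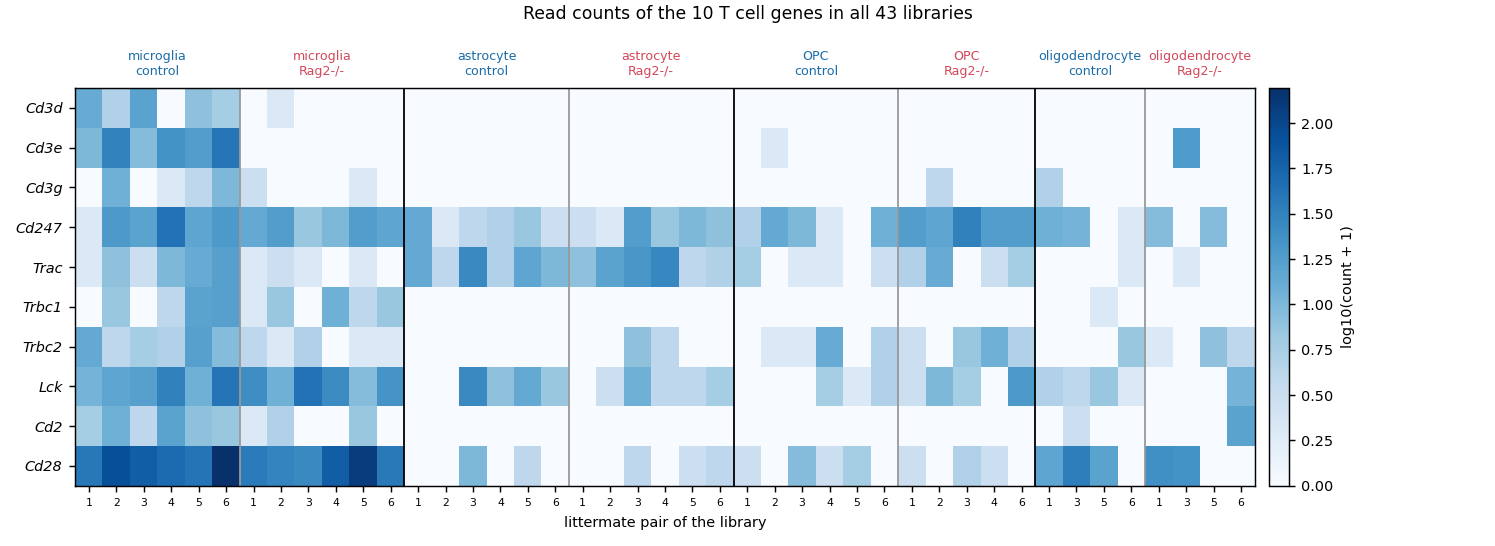
Read counts of the 10 T cell genes (vertical axis) in all 43 libraries (horizontal axis, numbered by littermate pair and grouped by cell type and genotype), with darker blue for higher log10(count + 1). Most counts of the 3 CD3 genes lie in the 6 control microglia libraries, while Cd247, Lck and Trac appear in every cell type.

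The first question was whether transcripts of the receptor complex differed between Rag2-/- and control microglia. Cd3d, Cd3e and Cd3g together had 21 to 53 counts in each control microglia library, 192 in all, and 0 to 2 in each Rag2-/- library, 4 in all. This was 3.38 ± 1.22 CPM (SD, n = 6) in controls and 0.0682 ± 0.0879 CPM (SD, n = 6) in Rag2-/- mice, and the lowest control, at 2.14 CPM, lay above the highest Rag2-/- library, at 0.220 CPM. Of the 10 genes, Cd3e alone passed the test over all genes.

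Cd3e, whose chain pairs with both the delta and the gamma chain of CD3, had 8 counts in the lowest control microglia library, a median of 19.5 and 39 in the highest. It had no count in any of the 6 Rag2-/- microglia libraries, and the groups did not overlap. The control mean was 2.14 ± 1.02 CPM (SD, n = 6), at least 7.22-fold higher than the floor of 3 counts per Rag2-/- library. The difference passed the quasi-likelihood test of edgeR (fitted log2 fold -7.50 ± 0.97 SE, Benjamini-Hochberg adjusted p = 0.00249 over all genes), and Rag2-/- was lower in 6 of 6 littermate pairs. The fitted fold of a gene at 0 depends on the prior count and is no measure of size. With 24760 genes tested in microglia, 0.0121% were called, which were the 3 genes Cd3e, Iftap and Igkc, all lower in Rag2-/-, and 1 of the 10 T cell genes was among them. Cd3e stayed called when any of the 12 microglia libraries was left out (adjusted p = 0.00139 to 0.0312), with the littermate pair as a block (adjusted p = 0.000497) and against the Rag2+/- controls alone (adjusted p = 0.0395). It was too low to be tested under edgeR's own filter on low counts, which kept 3 of the 10 genes (Cd247, Lck and Cd28) and called none of them.

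Cd3d and Cd3g, the other CD3 chains, did not pass. Cd3d had 0 counts in the lowest control microglia library, a median of 6 and 15 in the highest, while 1 count in 1 library was all that the Rag2-/- group had. The Rag2-/- group had 0.0218 of the control level of Cd3d (95% exact interval of the pooled counts 0.000541 to 0.128, counting error only). Rag2-/- was lower in 5 pairs and both libraries of the remaining pair were at 0, so the ranges overlapped there (log2 fold -4.85 ± 1.23 SE, unadjusted p = 0.000597, edgeR adjusted p = 1.00). Cd3g was lower than its neighbours, with 0 to 11 counts in controls and 0 to 2 in Rag2-/- libraries, and the ranges overlapped (log2 fold -2.62 ± 1.27 SE, unadjusted p = 0.0508, edgeR adjusted p = 1.00). Of its 24 control counts, the library of pair 2 held 11 and that of pair 6 held 9.

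None of the genes of the antigen-binding chains passed the test over all genes. By CPM, Trbc2 and Trac were lower in every Rag2-/- mouse than in its littermate, and Trbc1 was lower in 3 of 6 pairs. For Trac the difference in pair 1 is one of depth only, since both libraries had 1 count. Trac, the only constant gene of the alpha chain, had 1, a median of 8 and 16 counts at the lowest and highest control microglia library, against 0, 1 and 2 in Rag2-/- microglia. Its pooled ratio of Rag2-/- to control was 0.0999 (95% exact interval 0.0310 to 0.250, counting error only), and the Rag2-/- library had fewer counts in 5 of 6 pairs. In pair 1 both libraries had 1 count, and in pair 3 the control had 2 and the Rag2-/- library 1, all under the floor of 3 counts. Trac did not pass over all genes (log2 fold -3.12 ± 0.94 SE, unadjusted p = 0.00279, edgeR adjusted p = 1.00), and its ranges overlapped because the controls of pairs 1 and 3 had only 1 and 2 counts.

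Trbc2, one of the constant genes of the beta chain, had 3 to 16 counts in control microglia and 0 to 4 in Rag2-/- microglia. The lowest control stood at 0.363 CPM and the highest Rag2-/- library at 0.366 CPM, so the ranges just met, and Rag2-/- was lower in 6 of 6 pairs (ratio 0.192, interval 0.0866 to 0.383, log2 fold -2.46 ± 0.86 SE, unadjusted p = 0.00881, edgeR adjusted p = 1.00). Trbc1 had 0 to 16 counts in control and 0 to 11 in Rag2-/- microglia, with 5 of 6 Rag2-/- libraries above 0, and Rag2-/- was lower in 3 pairs and higher in 2 (log2 fold -0.56 ± 0.92 SE, edgeR adjusted p = 1.00). Its control and Rag2-/- means, 0.675 ± 0.738 and 0.450 ± 0.403 CPM (SD, n = 6 each), differed by less than the spread between libraries. The difference between the fitted effects of Trbc1 and Trbc2 was not tested, and the shared sequence shown above limits both.

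Cd2, Lck, Cd247 and Cd28 did not pass the test over all genes. By CPM, Cd2 was lower in every Rag2-/- mouse than in its littermate, while Lck, Cd247 and Cd28 were not. How many of all genes were lower in every pair was not counted, so the pair counts here and above are descriptions only. Cd2 had 3, a median of 6.5 and 15 counts in control microglia and 0, 0.5 and 6 in Rag2-/- microglia. Rag2-/- was lower in 6 of 6 pairs (ratio 0.220, interval 0.103 to 0.430), while the test over all genes was not passed (log2 fold -2.73 ± 0.97 SE, unadjusted p = 0.00935, edgeR adjusted p = 1.00). Lck, at 2.00 ± 0.75 CPM in controls and 2.16 ± 1.13 CPM in Rag2-/- microglia (SD, n = 6 each), had wholly overlapping groups (log2 fold 0.21 ± 0.42 SE, edgeR adjusted p = 1.00). Its CPM was lower in Rag2-/- in 4 of 6 pairs and higher in 2. Cd247 stood at 1.84 ± 1.30 CPM in controls and 1.26 ± 0.46 CPM in Rag2-/- microglia, with Rag2-/- lower in 4 of 6 pairs (log2 fold -0.60 ± 0.54 SE, edgeR adjusted p = 1.00).

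Cd28 was the most counted of the 10 genes in microglia. Controls had 37, a median of 55 and 155 counts, or 7.11 ± 2.90 CPM (SD, n = 6), and Rag2-/- libraries had 26, 35.5 and 121 counts, or 4.84 ± 2.75 CPM. The groups overlapped and 4 of 6 pairs were lower in Rag2-/- (log2 fold -0.61 ± 0.34 SE, unadjusted p = 0.0811, edgeR adjusted p = 1.00). Over the 6 Rag2-/- microglia libraries Cd28, Lck and Cd247 had 309, 131 and 76 counts, where the 3 CD3 genes together had 4.

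**Figure D2:**
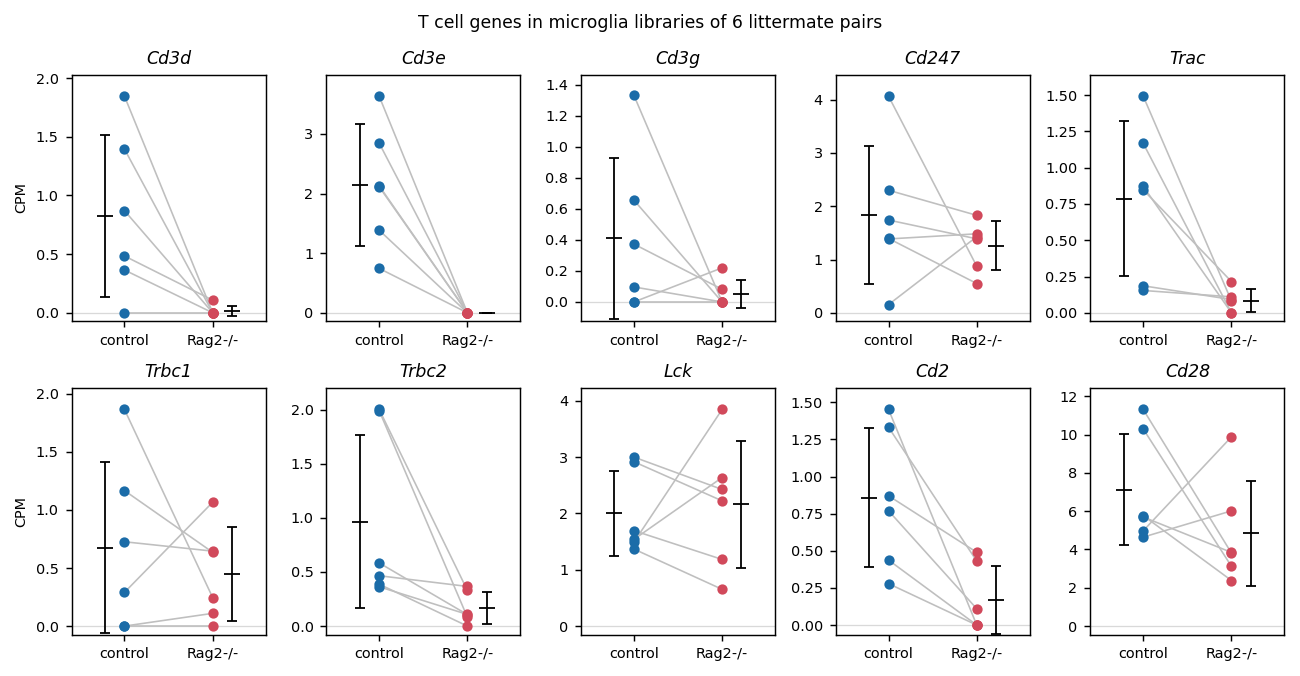
CPM of each T cell gene in the 6 control (blue) and 6 Rag2-/- (red) microglia libraries, with grey lines joining littermates and black bars for the mean and SD. Cd3e is at 0 in all 6 Rag2-/- libraries and between 0.744 and 3.63 CPM in controls, whereas Lck and Cd28 overlap between genotypes.

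Across the 10 genes in microglia, 9 fitted log2 folds were below 0 and 5 had an unadjusted p under 0.05. Over all 24760 genes tested in microglia, 1032 had an unadjusted p under 0.05, the share to set beside such counts in the lists below. The median log2 fold of the 10 T cell genes was -2.54, also with Cd3e placed at its bound, and the median over all 24760 genes was 0.00. In these bulk libraries fewer cells of a type and less RNA per cell cannot be told apart.

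Per kilobase of exon, which allows genes to be compared, the control microglia levels ran from 1.39 CPM per kb for Trbc2 down to 0.125 CPM per kb for Cd3g. The values of Trbc1, Trbc2 and Cd247 share the uncertainty of their counts. Trbc2 had 1.39 ± 1.16, Cd28 1.16 ± 0.47, Trbc1 0.916 ± 1.00, Trac 0.841 ± 0.569 and Lck 0.636 ± 0.238 CPM per kb (SD, n = 6). Cd3e followed with 0.525 ± 0.251, Cd2 with 0.441 ± 0.241, Cd3d with 0.320 ± 0.267, Cd247 with 0.313 ± 0.220 and Cd3g with 0.125 ± 0.158 CPM per kb. Each gene differed from its direct neighbours in this order by less than the larger of their SDs, and genes further apart were not compared. In Rag2-/- microglia the order was led by Cd28 with 0.791 ± 0.449, Lck with 0.687 ± 0.358 and Trbc1 with 0.611 ± 0.547 CPM per kb, and ended with Cd3g at 0.0153 ± 0.0272, Cd3d at 0.00693 ± 0.0170 and Cd3e at 0.

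In the other cell types no T cell gene passed the test of genotype. In oligodendrocytes 6 of the 10 genes had the 10 counts over all libraries that were required for testing, and edgeR's quasi-likelihood test called 0 of them at adjusted p = 0.921 or above, 0 at an unadjusted p under 0.05, and DESeq2 called 0, where 0.0% of 22238 genes were called by edgeR. In OPCs 5 genes were tested and 0 called, with 0 at an unadjusted p under 0.05 (edgeR adjusted p = 1.00 for each, 0 called by DESeq2, 0.0038% of 26299 genes called by edgeR). In astrocytes 5 genes were tested and 0 called, with 1 at an unadjusted p under 0.05 (edgeR adjusted p = 1.00 for each, 0 called by DESeq2, 0.00406% of 24653 genes called by edgeR). That gene was Trbc2, with no count in 6 control astrocyte libraries and with 7 and 3 counts in the Rag2-/- libraries of pairs 3 and 4 (log2 fold 3.89 ± 1.59 SE, edgeR unadjusted p = 0.0277). It just met the 10 counts required for testing, all from these Rag2-/- libraries, and without either of them it was not tested. Its fitted fold depends on the prior count and is no measure of size. Over all genes, 998 of 22238 in oligodendrocytes, 1366 of 26299 in OPCs and 1071 of 24653 in astrocytes had an unadjusted p under 0.05.

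**Figure D3:**
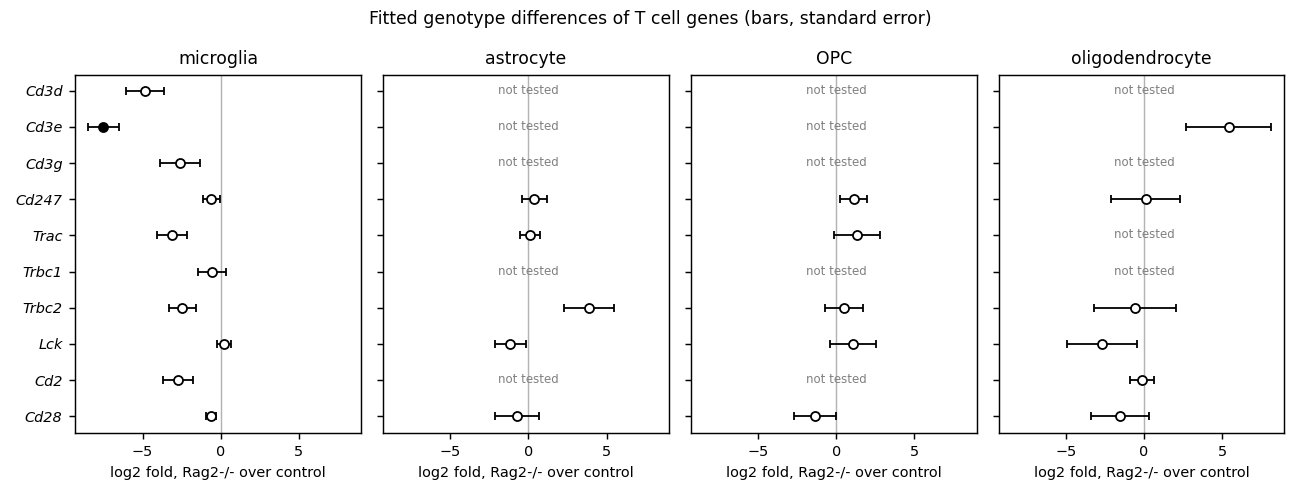
Fitted log2 fold of Rag2-/- over control (horizontal axis) for the 10 T cell genes (vertical axis) in each cell type, with bars for the standard error and a filled point for an adjusted p under 0.05. Cd3e in microglia, at -7.50, is the single filled point, and genes under 10 counts in a cell type are marked as not tested.

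The CD3 genes were nearly absent from the other cell types, whatever the genotype. Cd3d had no count in any of the 31 oligodendrocyte, OPC and astrocyte libraries, and none of the 3 genes had a count in the 12 astrocyte libraries. The exceptions were few. Cd3e had 18 counts, or 1.58 CPM, in 1 Rag2-/- oligodendrocyte library, that of pair 3, and 1 count in 1 control OPC library. In that oligodendrocyte library Cd3d, Cd3g, Trbc1, Trbc2, Lck and Cd2 had no count and Trac had 1, while Cd28 had 22. Cd3g had 4 counts in a control oligodendrocyte library and 3 in a Rag2-/- OPC library. In the Rag2-/- oligodendrocyte library of pair 6, Cd2 had 15 counts, Lck 10 and Trbc2 3, whereas its Cd3d, Cd3e, Cd3g, Cd247, Trac, Trbc1 and Cd28 had none.

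Trac had its highest group means in astrocytes, although the libraries overlapped with those of control microglia. Control astrocytes had 3, a median of 11 and 26 counts, or 1.29 ± 0.87 CPM (SD, n = 6), and Rag2-/- astrocytes had 3, 11 and 28 counts, or 1.29 ± 1.05 CPM (SD, n = 6). The genotypes overlapped fully (log2 fold 0.09 ± 0.64 SE, edgeR adjusted p = 1.00), and no astrocyte library had a count of Cd3d, Cd3e, Cd3g, Trbc1 or Cd2. The V segments of T cell receptor genes had 0 to 6 counts in control and 0 to 24 in Rag2-/- astrocyte libraries, summed over 144 genes. The J segments had 0 to 11 and 6 to 29, summed over 70 genes. In control and Rag2-/- libraries of the other cell types they had 0 to 7 and 0 to 6 (OPCs), 0 to 19 and 0 to 15 (microglia), and 1 to 7 and 0 to 24 (oligodendrocytes). Whether J segment counts went with those of Trac was not tested. V segment counts did not follow those of Trac across cell types, since OPC libraries had 11 to 38 in controls and 28 to 81 in Rag2-/-, most of them from Trav3-4, and microglia had 0 to 12 and 0 to 2. In OPCs Trac reached 5 counts in controls and 12 in Rag2-/- libraries, and in oligodendrocytes 1 in either genotype.

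Cd247, Lck and Cd28 were counted in every cell type. Cd247 was at 1.41 ± 0.56 CPM in Rag2-/- OPCs (SD, n = 5) and 0.665 ± 0.655 CPM in control OPCs (SD, n = 6), a difference that did not pass (log2 fold 1.13 ± 0.86 SE, edgeR adjusted p = 1.00). Lck was at 0.966 ± 1.06 CPM in control and 0.374 ± 0.319 CPM in Rag2-/- astrocytes (SD, n = 6 each; log2 fold -1.16 ± 0.98 SE, edgeR adjusted p = 1.00). Cd28 in oligodendrocytes ranged from 0 to 33 counts in controls and from 0 to 23 in Rag2-/- libraries (log2 fold -1.52 ± 1.85 SE, edgeR adjusted p = 0.993).

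**Figure D4:**
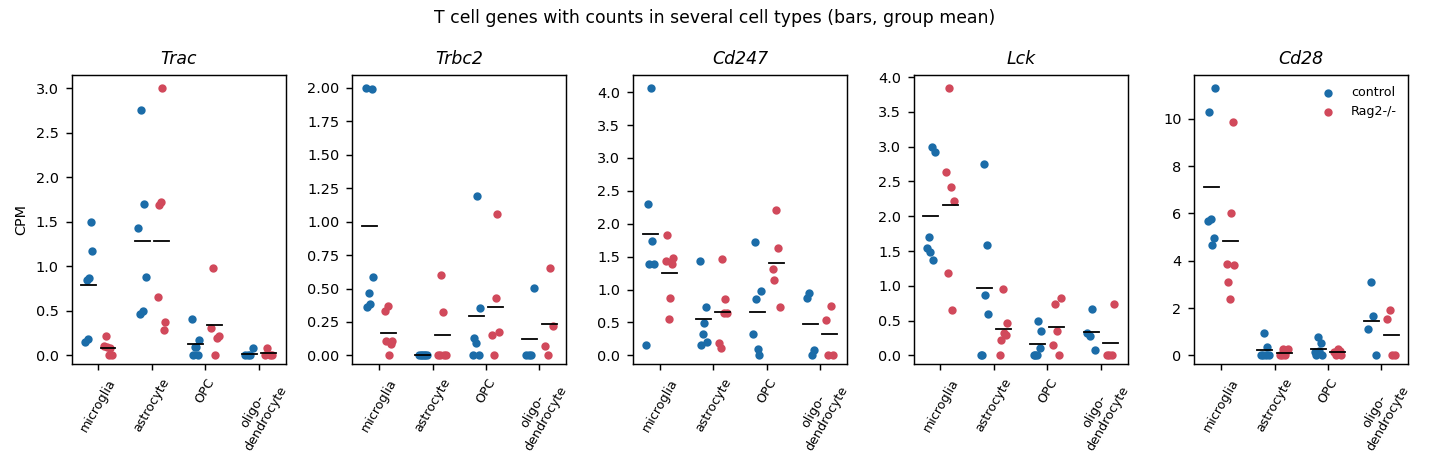
CPM of the 5 T cell genes with counts in several cell types, by cell type (horizontal axis) and genotype (blue, control; red, Rag2-/-), with 1 point per library and a black bar at the group mean. Trac has its highest means in astrocytes of both genotypes, at 1.29 CPM, and Lck and Cd28 have theirs in microglia.

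Among control mice, microglia libraries held more of most of these transcripts than the mean of the other glia. Against the mean of control oligodendrocytes, OPCs and astrocytes, 9 of the 10 genes were called higher by edgeR's quasi-likelihood test, where 26.4% of 28687 genes were called higher. The lowest adjusted p-values were those of Cd3e (log2 difference 6.84 ± 0.77 SE, adjusted p = 4.0e-07), Cd28 (3.61 ± 0.66 SE, adjusted p = 4.6e-05) and Cd2 (5.00 ± 0.85 SE, adjusted p = 0.000100). Trac was the smallest of the 9 (1.86 ± 0.71 SE, adjusted p = 0.0290), and it no longer passed without the control microglia library of pair 5 (adjusted p = 0.0773) or of pair 6 (adjusted p = 0.0776). Its call holds against the mean only, since control astrocytes had more of it (1.38 CPM per kb) than control microglia (0.841 CPM per kb). Without a filter on low counts Trac did not pass either (adjusted p = 0.0543). Cd3g no longer passed without the library of pair 6 (adjusted p = 0.0618) or by DESeq2 (adjusted p = 0.261), and Trbc1 did not pass by DESeq2 (adjusted p = 0.0637). Cd247 was not called (1.34 ± 0.70 SE, adjusted p = 0.113), but passed without the control OPC library of pair 2 (adjusted p = 0.0358). edgeR's own filter on low counts left 5 of the 10 genes in this comparison, of which 4 were called. Libraries of 1 cell type shared a sequencing lane, so lane and cell type cannot be told apart. The same control mice gave libraries of several cell types, and the main fit took these as independent.

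Whether the genotype difference in microglia exceeded that of the other cell types was tested in a joint fit of the 43 libraries, with libraries of the same mouse taken as independent. It called 0 of the 10 genes by edgeR's quasi-likelihood test and 0 by DESeq2, where edgeR called 0.00635% of 31490 genes. Of the 10, 2 had an unadjusted p under 0.05, against 1763 of the 31490 genes. The 2 members under 0.05 were Trbc2 (difference of log2 folds -4.53 ± 1.41 SE, adjusted p = 0.583) and Trac (-3.44 ± 1.21 SE, adjusted p = 0.670). For Trbc2 all control astrocyte libraries were at 0, so its difference depends on the prior count and is no measure of size. Its log2 fold in microglia alone was -2.46. Cd3d, Cd3e, Cd3g, Trbc1 and Cd2 could not be fitted, since whole groups of other cell types were at 0. For Cd3e the difference was computed over littermate pairs after the data were seen and is given as a description. The drop from control to Rag2-/- microglia, less the mean drop in the other cell types of the same pair, was 2.22 ± 0.87 CPM (SD, n = 6 pairs) and positive in 6 of 6 pairs.

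The other T cell genes gave a mixed picture in microglia. Of 29 coreceptors, signalling proteins, receptors and transcription factors of T cells, 27 were tested and 0 were called by edgeR's quasi-likelihood test. At an unadjusted p under 0.05 there were 6, against 1032 of 24760 over all genes. The median log2 fold of the 27 genes tested was -0.17 against 0.00 over all genes. The highest were Lcp2, an adaptor that myeloid cells also use, with 717 ± 119 CPM in controls and 762 ± 88 CPM in Rag2-/- microglia, and the chemokine receptor Ccr7 with 45.5 ± 4.5 and 43.2 ± 16 CPM (SD, n = 6 each). Cd8a, Cd8b1 and Ubash3a were singled out after their values were seen. Cd8a, a chain of the coreceptor of cytotoxic T cells, had 1, a median of 5 and 19 counts in controls and 0, 0 and 2 in Rag2-/- microglia (log2 fold -4.70 ± 1.09 SE, unadjusted p = 0.000242, edgeR adjusted p = 1.00). Cd8b1, its partner chain, had 0 to 17 and 0 to 1 counts (log2 fold -5.04 ± 1.12 SE, unadjusted p = 0.000145, edgeR adjusted p = 0.899). Ubash3a, a regulator of T cell receptor signalling, had 1 to 33 and 0 to 2 counts (log2 fold -4.61 ± 1.16 SE, unadjusted p = 0.000560, edgeR adjusted p = 1.00). Cd4, the coreceptor of helper T cells, which microglia libraries held in both genotypes, stood at 10.1 ± 6.2 CPM in controls and 10.6 ± 4.7 CPM in Rag2-/- (SD, n = 6 each).

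Of the 5 constant genes of the gamma delta T cell receptor, 2 were tested in microglia and 0 were called by edgeR's quasi-likelihood test, with 1 at an unadjusted p under 0.05. Trgc4 had 4 to 14 counts in control and 1 to 17 in Rag2-/- microglia, and Trgc2 had 0 to 7 in control and none in Rag2-/- microglia. Trdc, the constant gene of the delta chain, had no count in any of the 12 libraries.

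Markers of other cells that CD45 could hold were summed beside the T cell genes. The 11 B cell genes had 1 called lower of 10 tested, Igkc, the constant gene of the kappa light chain of antibodies. Igkc had 0, a median of 41 and 151 counts in controls and 0, 0 and 1 in Rag2-/- microglia (log2 fold -7.37 ± 1.05 SE, edgeR adjusted p = 0.00249). Pax5, a defining transcription factor of B cells, had 0 to 12 counts in controls and none in Rag2-/- microglia. The B cell list as a whole summed to 656 to 891 CPM in controls and 707 to 820 CPM in Rag2-/- microglia, most of it from Blnk (400 ± 42 and 398 ± 27 CPM) and Ighm (357 ± 60 and 347 ± 29 CPM; SD, n = 6 each). Blnk and Ighm stood at like levels in mice that lack mature B cells, so the sum of this list is no measure of B cells. The source of their counts was not tested. The 10 NK cell genes had 0 called by edgeR's quasi-likelihood test, with 1 at an unadjusted p under 0.05. They summed to 3.07 to 14.3 CPM in controls and 3.66 to 12.5 CPM in Rag2-/- microglia. Gzmb, a granzyme of cytotoxic cells, stood at 2.30 ± 1.95 and 1.56 ± 0.91 CPM, and Klrd1, a receptor chain of NK cells, at 1.06 ± 0.37 and 1.40 ± 0.24 CPM (SD, n = 6 each). The one under 0.05 was Klrb1c, which encodes a receptor that marks NK cells, with 0 to 1 counts in controls and 1 to 12 in Rag2-/- microglia (log2 fold 2.82 ± 0.99 SE, unadjusted p = 0.00887, edgeR adjusted p = 1.00). The 8 genes of border macrophages and blood myeloid cells had 0 called, with 1 at an unadjusted p under 0.05, and summed to 359 to 808 and 374 to 743 CPM, led by Mrc1 (378 ± 73 and 344 ± 91 CPM) and Pf4 (112 ± 49 and 98.1 ± 29.2 CPM). The one under 0.05 was Ly6c2, a gene of blood monocytes, with 4 to 52 counts in controls and 0 to 8 in Rag2-/- microglia (log2 fold -1.94 ± 0.75 SE, unadjusted p = 0.0154, edgeR adjusted p = 1.00). Pax5, Klrb1c and Ly6c2 were described here after their values were seen. The part of these cells in the counts of the T cell genes was not tested.

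The 8 partners of T cell proteins on other cells were present in microglia of both genotypes. None of them was called by edgeR's quasi-likelihood test (0 of 8, 0 at an unadjusted p under 0.05), and they summed to 3866 to 4697 CPM in controls and 3627 to 4417 CPM in Rag2-/- microglia. B2m, the light chain of MHC class I, stood at 1912 ± 220 and 1861 ± 180 CPM, and H2-K1, a class I heavy chain, at 1005 ± 194 and 917 ± 84 CPM (SD, n = 6 each). The markers of astrocytes, oligodendrocytes, OPCs, neurons and endothelial cells had 0 called between the microglia of the 2 genotypes and none at an unadjusted p under 0.05. The 6 microglia markers had 0 called and 1 at an unadjusted p under 0.05.

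The genes whose pattern over all 43 libraries was most like that of Cd3e were found by Pearson correlation of log2(CPM + 0.5). They were Gm49368 (r = 0.771), Ly6c2 (0.765), Unc93a (0.737), Or14j9 (0.733) and Ms4a4a (0.731), among genes with at least 20 counts in all. Within the T cell genes the correlation with Cd3e was 0.720 for Cd2, 0.670 for Cd3g, 0.667 for Cd3d and 0.627 for Cd28, and it was lowest for Trac at 0.209. The 43 points share depth, amplification and cell type, most of the values of Cd3e are 0, and these correlations describe the libraries only.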

How the data were processed

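The authors isolated RNA from immunopanned cells, amplified the cDNA (Ovation system), sequenced read pairs (NovaSeq), aligned these to GRCm39 by STAR 2.7.8a and counted pairs per gene by HTSeq. The values they deposited are raw whole-number counts per gene, without normalization, and read pairs on no gene or several places (33.5% to 52.0% of a library) were left out here. Amplified reads carry no molecular identifiers, so intervals and floors cover counting error only. The sources used here do not state the strand setting.

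The members and lists were chosen with earlier results of these data known. CPM are counts per 1000000 counts on genes. Genotype was tested within each cell type in R 4.3.3 with edgeR 4.0.16 (TMM, glmQLFit and glmQLFTest, terms for sex and genotype, genes with at least 10 counts in all, Benjamini-Hochberg adjustment over all genes tested, threshold 0.05). Joint fits gave the other contrasts. Alternatives were no filter, filterByExpr, DESeq2 size factors, DESeq2 1.42.0, a robust fit, no sex term, the littermate pair as a block, Rag2+/- controls alone and each library left out. The pairing comes from the labels' pair numbers and littermates: deviations within pairs correlated by 0.0906 (microglia) to 0.141 (astrocytes) on average, and between pairs by -0.04 to -0.02. No libraries were duplicates (smallest chi-square 7.45 per gene). P-values of the fits within a cell type measure the spread between mice. The contrast of control cell types and the joint fit took libraries of the same mouse as independent, so their p-values do not measure that spread alone. Named genes were the 10 members, Rag2, Iftap, of each list the called genes and the 2 highest in control microglia, and the 5 genes most like Cd3e. On simulated microglia counts (24760 genes) the test recovered 90 of 100 genes changed 4-fold and 99 of 100 changed 8-fold among genes with at least 200 counts, with 10 false calls, so it says little of genes as low as these. Python 3.11.15, pandas and matplotlib assembled values and plots.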

Additional observations from a re-analysis of the deposited data

Results flagged for a closer look

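In 6 of the 45 groups of libraries in which a T cell gene rose above 3 counts, 1 library lay far above the rest of its group by Dixon's test. The usual rate of about 1 flag in 20 groups holds for continuous values and not for counts that are mostly 0, where a single library with counts is always flagged, so the number of flags is not read against chance. In oligodendrocytes 5 groups of 4 libraries had a single library with any count of the gene. Cd3e stood at 1.58 CPM (18 counts) in the Rag2-/- library of pair 3, Cd3g at 0.316 CPM (4 counts) in the control of pair 1, and Trbc2 at 0.502 CPM (6 counts) in the control of pair 6. Lck stood at 0.735 CPM (10 counts) and Cd2 at 1.10 CPM (15 counts) in the same Rag2-/- library of pair 6, and the other 3 Rag2-/- oligodendrocyte libraries had none of either. In OPCs Trbc2 stood at 1.19 CPM (12 counts) in the control of pair 4, against at most 4 counts in the other controls.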

How the results depend on the processing

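Amplified libraries and counts this low limit what can be detected: several of these genes had fewer than 20 counts in a library, and oligodendrocytes had 4 libraries a group. The number of T cell genes called in microglia stayed at 1, always Cd3e, in all alternatives that tested it (the replicate block included, with 1 called), and fell to 0 under filterByExpr, which did not test Cd3e. The 9 genes called higher in control microglia fell to 4 under filterByExpr, which tested fewer genes; no filter lost Trac (8 called) and DESeq2 lost Cd3g and Trbc1 (7 called). No T cell gene was called by genotype in another cell type or in the joint fit under any alternative run. Leaving out in turn the 31 libraries that are not microglia was not run for the joint fit. The bound of Cd3e rose from 7.22-fold to 44.4-fold with the floor of 3 counts set over the group. Over all genes, DESeq2 called 201 in oligodendrocytes where edgeR called 0 (998 at an unadjusted p under 0.05), and edgeR without a filter called 14. The other counts over all genes that moved by over 1.5 times were those without a filter (9 in microglia, 90 in OPCs, 30 in astrocytes, 60 in the joint fit), of DESeq2 (5 in OPCs, 44 in the joint fit), of filterByExpr (1 in microglia) and of the block (1 in oligodendrocytes, 2 in OPCs, 2 in astrocytes), and those without the Rag2-/- library of pair 6 in oligodendrocytes (1) or of pair 2 in OPCs (2).

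Fitted log2 folds of genes that were not called changed sign as follows, the cause not being tested. With the replicate block, Cd28 in the joint fit became -0.23, Cd247 in oligodendrocytes -1.14, Trbc2 in oligodendrocytes 1.63, Cd2 in oligodendrocytes 0.85 and Trac in astrocytes -0.13. Without the sex term, Cd247, Trbc2 and Cd2 in oligodendrocytes became -0.35, 0.77 and 2.77. Against Rag2+/- controls alone, Trbc1 in microglia became 0.24, Cd247 in oligodendrocytes -0.19, Trbc2 in oligodendrocytes 3.53 and Trac in astrocytes -0.30. With 1 library left out, the values ranged from -0.019 to 0.65 for Cd28 in the joint fit and from -1.74 to 0.14 for Trbc1 in microglia. In oligodendrocytes they ranged from -1.08 to 1.58 for Cd247, -2.22 to 3.53 for Trbc2, -2.61 to 3.06 for Cd2 and -2.42 to 0.41 for Cd28. They ranged from -0.14 to 1.50 for Trbc2 in OPCs, and in astrocytes from -0.094 to 0.88 for Cd247, -0.24 to 0.53 for Trac and -1.55 to 1.05 for Cd28.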
